A study of Mus musculus with 8 samples.

Results

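The 43 DNA replication and S-phase genes described here were chosen by name. They copy DNA, supply its building blocks, package or repair it while it is copied, or control entry into S phase. Each symbol matched 1 row of the 27775 gene rows in both count tables. The genes were followed across macrophages, stromal cells and carcinoma states that were called from other genes, in a medium-size and a large-size pancreatic tumor of KPC mice. KPC animals carry engineered tumor-driving alleles, among them a heterozygous mutant Trp53 allele, behind lox-stop-lox cassettes, and Cre recombinase driven by the Pdx1 promoter, so that the alleles are switched on in pancreatic epithelium and its descendants. All animals were untreated. Dissociated tumor cells were captured on the 10x Chromium 3′ platform with unique molecular identifiers (UMIs), which count each captured RNA molecule once.

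Before a cell divides, the origin recognition complex and Cdc6 load the Mcm2-7 helicase onto DNA, and geminin (Gmnn) prevents a repeat loading in the same cycle. Cdc45 and the GINS complex turn the loaded ring into an active helicase, polymerases extend primed strands on the Pcna clamp, and ribonucleotide reductase and its neighbors supply the nucleotides. Many of these genes are switched on together by E2F transcription factors when cyclin E kinase lets the cell pass from G1 into S phase, and several of their mRNAs persist into G2. Transcripts of this list are therefore widely read as a sign of cells in or near S phase.

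The medium-size tumor gave 2812 cells with 20301669 UMIs, from 2704 to 47440 in a cell and 5456.5 at the median. The large-size tumor gave 1533 cells with 2239012 UMIs, from 529 to 11294 in a cell and 1037 at the median, and 5 barcodes occurred in both tables. Each size was represented by 1 tumor, whose 4 technical replicates were pooled in 1 table, so no difference below has a replicate check. Tumor size, animal, library and depth cannot be told apart. The sample descriptions also carry the word SCS for the medium-size and Whole for the large-size tumor, and whether the cells were prepared in different ways is not given in the sources used here. The intervals are exact 95% intervals of counts (Poisson for sums, conditional for ratios, binomial for shares of cells), and they cover counting error only. Epithelial-like cells, taken as the carcinoma compartment, made up 2087 medium and 1219 large cells in 7 clusters each. Large clusters 4 (209 cells) and 6 (160 cells) were highest for 10 of 10 enterocyte and 6 of 7 goblet genes. Whether these cells are carcinoma was not tested, and the carcinoma values of that tumor include them unless stated otherwise. Monocyte/macrophage-like cells numbered 237 and 253, and stromal-like (fibroblast) cells 67 and 50. The medium-size tumor also held 74 mesothelial-like and 40 endothelial-like cells and 307 cells in 2 unnamed clusters, and the large-size tumor held 11 endothelial-like cells. Of 11 epithelial markers, 7 to 10 were found in each of the 7 medium and 6 to 11 in 6 of the 7 large epithelial-like clusters. The exception was large cluster 1 (272 cells) with 3, the fewest that give the name, while medium cluster 8 (227 cells), with 2, was left unnamed. All 11 monocyte/macrophage markers were found in the medium macrophage cluster and 9 of 11 in the large, and 8 and 6 of 10 fibroblast markers in the stromal clusters. Epithelial markers stood in medium macrophage-like cells at 5.44% of their carcinoma level (4.71% to 9.97% over 11 markers) and in stromal-like cells at 10.4%. The part of this level in the results was not tested.

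The promoters of several members carry the short DNA words to which E2F factors bind, and the windows of 4 genes that recur in the results are printed here. Windows from 250 bases before to 50 bases after the transcript start were taken from RefSeq on GRCm38.p6, the assembly also known as mm10, and 36 of 43 members had at least 1. The words TTTCCCGC, TTTCGCGC, TTTGCCGC and TTTGGCGC were searched on both strands, and they are in capitals below. Overlapping matches run together as 1 stretch of capitals.

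Mcm6: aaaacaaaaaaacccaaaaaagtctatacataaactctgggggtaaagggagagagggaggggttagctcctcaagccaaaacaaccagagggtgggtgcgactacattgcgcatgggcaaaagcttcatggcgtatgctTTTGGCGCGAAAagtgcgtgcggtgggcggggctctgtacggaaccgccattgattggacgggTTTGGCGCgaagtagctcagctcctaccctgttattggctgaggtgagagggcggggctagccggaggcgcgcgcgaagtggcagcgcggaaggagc

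Mcm5: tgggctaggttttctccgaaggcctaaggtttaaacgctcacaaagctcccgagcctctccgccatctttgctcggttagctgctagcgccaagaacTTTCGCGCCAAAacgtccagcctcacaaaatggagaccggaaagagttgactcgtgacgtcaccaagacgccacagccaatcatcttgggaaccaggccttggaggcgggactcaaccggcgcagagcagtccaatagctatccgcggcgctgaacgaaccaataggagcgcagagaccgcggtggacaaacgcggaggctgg

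2810417H13Rik: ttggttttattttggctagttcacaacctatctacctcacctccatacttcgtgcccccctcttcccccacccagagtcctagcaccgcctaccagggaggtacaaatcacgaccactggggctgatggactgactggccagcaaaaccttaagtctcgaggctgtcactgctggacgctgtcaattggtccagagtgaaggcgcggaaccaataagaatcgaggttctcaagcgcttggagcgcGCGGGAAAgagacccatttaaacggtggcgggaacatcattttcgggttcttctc

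Rrm2: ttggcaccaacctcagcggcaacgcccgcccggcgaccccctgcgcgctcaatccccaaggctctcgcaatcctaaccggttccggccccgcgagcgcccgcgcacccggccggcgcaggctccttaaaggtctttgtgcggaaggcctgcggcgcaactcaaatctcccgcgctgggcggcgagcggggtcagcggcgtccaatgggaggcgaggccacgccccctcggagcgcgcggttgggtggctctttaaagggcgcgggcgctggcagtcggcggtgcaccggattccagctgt

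The Mcm6 window, chr1:128359656-128359955 on the minus strand, holds 3 words, starting at −110, −106 and −47 (the base before the transcript start being −1), of which the first 2 overlap. The Mcm5 window, chr8:75109259-75109558 on the plus strand, holds 2 overlapping words at −153 and −149. The gene 2810417H13Rik, named Pclaf in RefSeq, encodes a small factor that binds the Pcna clamp, and its window at chr9:65890073-65890372 on the plus strand holds 1 word at −5. The Rrm2 window, chr12:24708004-24708303 on the plus strand, holds none of these words. Of the 36 members with a window, 15 held a word (41.7%), against 704 of 27025 genes in the whole table of promoters (2.60%) and 4.81% of the 9404 genes with a window and at least 20 UMIs in the medium epithelial-like cells. By role, 4 of 6 helicase genes and both matched licensing genes held a word, and none of the 5 nucleotide supply genes did. Among the lists that are no members, a word was found in 11 of 34 other replication genes, 7 of 19 G1 regulators and 1 of 42 mitotic genes. A word is a match of letters and not a shown binding site.

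All 43 genes had UMIs in the epithelial-like and in the macrophage-like class of the medium-size tumor, and 36 had UMIs in the stromal-like cells. Summed over the 43 genes, the level was 1038 UMIs per 1000000 UMIs of the class (CPM, interval 1022 to 1054) in epithelial-like cells, from 16741 member UMIs. It was 1132 CPM (1064 to 1203) in macrophage-like cells from 1038 UMIs, and 671.8 CPM (586.5 to 766.0) in stromal-like cells from 223 UMIs. Mesothelial-like cells stood at 602.8 CPM and endothelial-like cells at 655.1 CPM, with intervals of 528.3 to 684.8 and 558.9 to 763.0. The intervals of these last 3 classes overlapped, and all of them lay below those of carcinoma and macrophages. Single genes were sparse per cell: in the epithelial-like cells a UMI was found in 1.198% of cells for Ccne2 and in 39.8% for Dut, with Fen1 at the middle of the order at 9.58%. No class of these tumors is known to lack the genes, so no background share for them could be set.

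**Figure D1:**
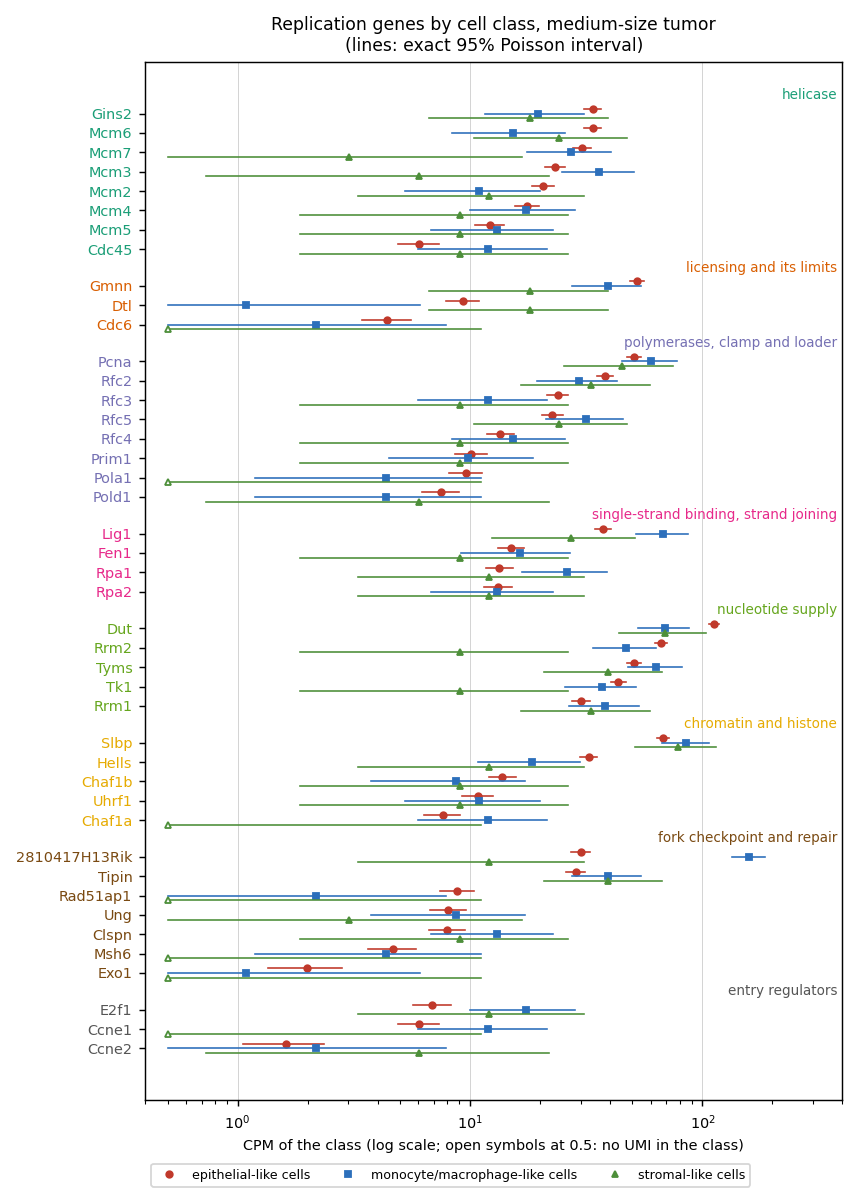
CPM of each of the 43 replication genes (log axis) in epithelial-like (red), monocyte/macrophage-like (blue) and stromal-like (green) cells of the medium-size tumor, grouped by role, with lines for the exact 95% Poisson interval and open symbols for 0 UMIs. 2810417H13Rik has its macrophage-like point at 158.1 CPM, far to the right of its epithelial-like point at 29.88, and Dtl has the reverse order, at 1.09 and 9.299 CPM.

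The comparison of macrophages with carcinoma cells asked whether the immune compartment of the tumor carries the replication program. The macrophage-like cells had these genes at about the level of the carcinoma cells, with a summed ratio of 1.09 (1.02 to 1.16) and a median ratio over the 43 genes of 1.11, beside 0.796 over all 12155 genes with at least 20 UMIs. Of the 43 genes, 5 were at least 2-fold higher in macrophages, where 12.9% of all genes were, and 3 were at least 2-fold lower, where 24.9% of all genes were. The interval of the ratio lay above 1 for 5 members (15.1% of all genes) and below 1 for 9 (31.8% of all genes). The share of members at or past 2-fold higher, 5 of 43, was thus near the background.

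The gene with the highest ratio was 2810417H13Rik, with 145 UMIs and 158.1 CPM in macrophages and 482 UMIs and 29.88 CPM in carcinoma cells, a ratio of 5.32 (4.36 to 6.38). At 2500 UMIs per cell it was found in 15.2% of macrophage-like and 4.17% of epithelial-like cells. Without this gene the summed ratio was 0.966 (0.902 to 1.03), so that the slight excess of the sum in macrophages rested on it. Other genes with intervals above 1 were E2f1, the transcription factor, at 17.45 against 6.881 CPM (2.67, 1.401 to 4.30), and Rpa1, a subunit of the protein that coats single-stranded DNA, at 26.17 against 13.39 CPM (2.03, 1.23 to 2.99). Lig1, the ligase that joins Okazaki fragments, stood at 67.61 against 37.44 CPM (1.83), and the helicase subunit Mcm3 at 35.99 against 23.25 CPM (1.59). Cdc45 and Ccne1 (cyclin E1) had 11 UMIs each in macrophages and 97 each in carcinoma cells, a ratio of 2.15 whose interval, 0.964 to 3.73, held 1.

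Subunits of the same helicase did not share a direction. Mcm6 stood at 15.27 CPM in macrophages and 33.72 in carcinoma cells (ratio 0.484, 0.246 to 0.766) and Mcm2 at 10.90 against 20.58 CPM (0.581), while Mcm3 was higher in macrophages and the values of Mcm4, Mcm5 and Mcm7, at 17.45, 13.09 and 27.26 CPM in macrophages, lay close to the 17.61, 12.15 and 30.31 CPM of carcinoma cells. The lowest ratios were those of Dtl, which marks licensing factors for destruction (1 UMI in macrophages, 0.233, 0.00295 to 0.663), and Rad51ap1, a recombination factor (2 UMIs, 0.369, 0.0297 to 0.912). Rfc3 of the clamp loader (0.548), the chromatin remodeler Hells (0.605), Gins2 (0.612), the dUTPase Dut (68.70 against 112.3 CPM, 0.621) and Rrm2, the small subunit of ribonucleotide reductase (46.89 against 66.21 CPM, 0.724), also had intervals below 1. Pcna stood at 59.98 against 50.71 CPM, Tyms at 63.25 against 50.65, Tk1 at 37.08 against 43.46 and Gmnn at 39.26 against 52.20, with differences inside the counting error. Cdc6, the licensing factor, had 2 UMIs in macrophages (2.181 against 4.401 CPM) and Ccne2, cyclin E2, also 2 (2.181 against 1.612 CPM), too few to order.

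Summed by role, the fork checkpoint and repair genes, which include 2810417H13Rik, had a macrophage to carcinoma ratio of 2.53 (2.17 to 2.92), or 1.146 (0.874 to 1.48) without that gene. The 3 entry regulators E2f1, Ccne1 and Ccne2 had 2.18 (1.43 to 3.22). The 4 genes of single-strand binding and strand joining had 1.56 (1.28 to 1.89). Nucleotide supply (0.839, 0.733 to 0.957) and licensing (0.645, 0.456 to 0.888) were lower, and the sums of the helicase (0.854, 0.715 to 1.01), polymerase, clamp and loader (0.948) and chromatin (1.02) groups had intervals that held 1.

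Stromal-like cells of the medium-size tumor had the genes at a lower sum than carcinoma cells, with a ratio of 0.647 (0.565 to 0.739). With equal weight for every cell the median ratio over the members was 1.01, the other direction. The median ratio from pooled UMIs was 0.803, or 0.949 with the members without a UMI set to a limit of 3 counts, beside 1.14 over all 12061 genes tested. At least 2-fold lower were 10 members, 4 of them without a UMI, where 11.8% of all genes were, and at least 2-fold higher were 3, where 22.7% of all genes were. The interval lay below 1 for 7 members (12.9% of all genes) and above 1 for none (13.7% of all genes). The 7 with intervals below 1 were Rrm2, with 3 UMIs and 9.037 against 66.21 CPM (0.182, 0.0281 to 0.4), Mcm7 with 1 UMI (0.198, 0.00251 to 0.556), Tk1 with 3 UMIs (0.277, 0.0428 to 0.610), Mcm3 with 2 UMIs (0.388, 0.0313 to 0.943), Gmnn (0.404), Hells (0.465) and Dut (69.28 against 112.3 CPM, 0.643).

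Another 7 members had no UMI in the 67 stromal-like cells: Pola1, Rad51ap1, Chaf1a, Ccne1, Msh6, Cdc6 and Exo1. By the limit of 3 counts that a count of 0 allows, up to 9.037 CPM was possible in this class (11.11 by the exact interval), which is near or above their level in carcinoma cells, so that a difference was not detectable for them at this depth. The members at least 2-fold higher were Ccne2 (2 UMIs, 5.40, 0.430 to 14.9), Dtl (6 UMIs, 2.25, 0.702 to 4.33) and E2f1 (4 UMIs, 2.17), and all 3 intervals held 1. Slbp, which binds the stem-loop of histone mRNAs, was at 78.32 against 67.88 CPM, Pcna at 45.19 against 50.71, Tyms at 39.16 against 50.65 and Rrm1 at 33.14 against 30.13. Of the other helicase subunits, Mcm6 was at 24.10 CPM, Mcm2 at 12.05 and Mcm4 and Mcm5 at 9.037 each, and 2810417H13Rik was at 12.05 CPM on 4 UMIs, all with intervals that held 1. The helicase, nucleotide supply and licensing groups were lower in the stromal-like cells by sum, at 0.509 (0.343 to 0.729), 0.527 (0.394 to 0.691) and 0.549 (0.283 to 0.962). In this small class the 5 cells with the most member UMIs held 87 of the 223, or 39.0%. Where every cell weighed the same, the median ratio was 1.01 in place of 0.803. Epithelial markers at 10.4% of their carcinoma level stood beside these values, and their part in them was not tested.

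Within the carcinoma compartment of the medium-size tumor the replication genes differed more between clusters than between classes. The clusters were formed without the 43 genes and without the fixed lists of mitotic and other replication genes. Cluster 5 (257 cells), led by Ccnb2, Cdca3, Birc5 and Cdk1, was highest at 1903 CPM (1850 to 1958). Although those genes took no part in the clustering, 9 of its 10 leading genes belong to the cell cycle lists. The remaining leading gene, Pbk, is on no list and was not left out. The clusters may therefore not be independent of the cell cycle, and the part of such unlisted genes was not tested. Cluster 2 (375 cells), led by Dcun1d5, Yap1, Tmem123 and Birc2, genes that lie in 1 chromosomal block, followed at 1474 CPM. The other 5 clusters were lower: cluster 3 (Tff3 and Reg1) at 717.2 CPM, cluster 4 (Cldn6 and Hmga2) at 629.7, cluster 1 (the gastric pit genes Gkn1 to Gkn3) at 568.7, cluster 7 (Krt17 and Cldn4) at 564.9 and cluster 9 (Dmbt1, Lcn2 and Sftpd) at 451.4 (415.7 to 489.3). The interval of cluster 9 lay below all others, whereas those of clusters 1 and 7, at 540.7 to 597.8 and 530.0 to 601.6, overlapped. The highest cluster had 4.22 times (3.87 to 4.60) the summed level of the lowest, and 2.63 times when the cells were clustered at resolution 0.4 instead of 0.8. The summed mitotic genes had the same order of clusters, from 4162 CPM in cluster 5 and 2734 in cluster 2 to 653.8 in cluster 9. Median depth was also high in the top clusters, at 7964 and 9515 UMIs per cell against 4375 to 5393 in the other 5, and its part in the result was not tested.

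**Figure D2:**
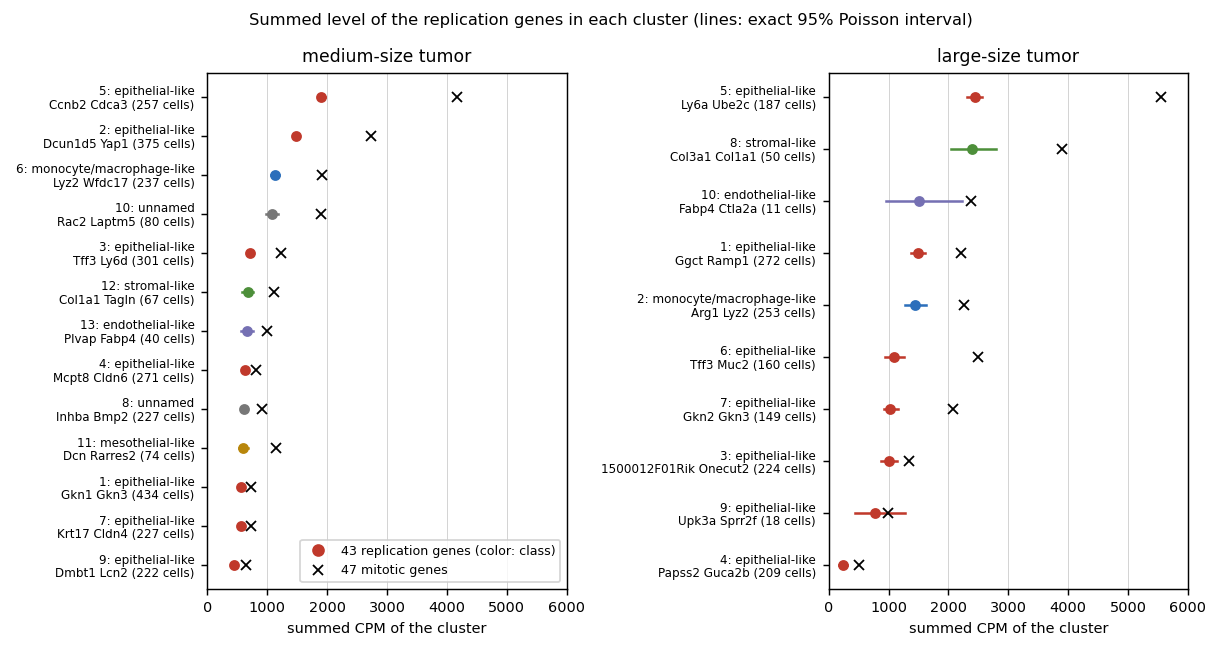
Summed CPM of the 43 replication genes (colored points, lines for the exact 95% Poisson interval) and of the 47 mitotic genes (crosses) in each cluster of the medium-size (left) and large-size (right) tumor, sorted by the replication sum. In both tumors the top point is the carcinoma cluster 5, at 1903 and 2440 CPM, and the crosses are highest there too.

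Gene by gene, 32 of the 43 members were highest in cluster 5, where 12.8% of all 11872 genes tested were highest, and the others in cluster 2, except Msh6 in cluster 3 and Cdc6 in cluster 9. The intervals of the highest and the lowest cluster were apart for 40 members, beside 70.5% of all genes, and they touched or overlapped for Cdc6, Msh6 and Ccne2. Among the members with a UMI in every cluster, the highest ratio between clusters was that of Rrm2, at 153.1 CPM (391 UMIs) in cluster 5, 123.1 in cluster 2, 25.86, 20.15 and 19.56 in clusters 4, 3 and 1, 2.291 in cluster 9 and 1.744 (3 UMIs) in cluster 7. The values of 2810417H13Rik ran from 94.35 CPM in cluster 5 and 37.06 in cluster 2 to 1.162 in cluster 7. Gmnn stood at 98.27 CPM in cluster 5 and 6.110 in cluster 9, and Mcm5 at 27.01 in cluster 5 and 1.744 in cluster 7. These low values rest on 2 to 8 UMIs, and the ratio of highest to lowest was 87.8 (29.8 to 427.6) for Rrm2, 81.2 (22.2 to 674.1) for 2810417H13Rik, 16.1 (8.04 to 37.7) for Gmnn and 15.5 (5.09 to 77.0) for Mcm5.

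A second set of members was much flatter across these states. Pcna stood at 73.99 CPM in cluster 5 and between 38.19 and 52.84 in the other 6 clusters, a ratio of 1.94 (1.41 to 2.70). The ratio of the highest to the lowest cluster was 1.93 for Slbp, 2.11 for Mcm6 and Rfc2 and 2.32 for Rfc3, against 18.7 (7.15 to 69.6) for Mcm3 and 16.4 (9.03 to 33.3) for Tk1. Rad51ap1 and Prim1 had 1 and 2 UMIs in their lowest cluster, with ratios of 33.8 (5.90 to 1350) and 19.2 (5.08 to 162.4). Mcm6 and Mcm3, subunits of the same ring, thus lay near opposite ends of the order. By role, nucleotide supply ranged from 612.3 CPM in cluster 5 to 78.66 in cluster 9 and fork checkpoint and repair from 198.9 to 22.15, while the polymerase, clamp and loader genes ranged from 287.0 in cluster 5 to 111.9 in cluster 4.

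**Figure D3:**
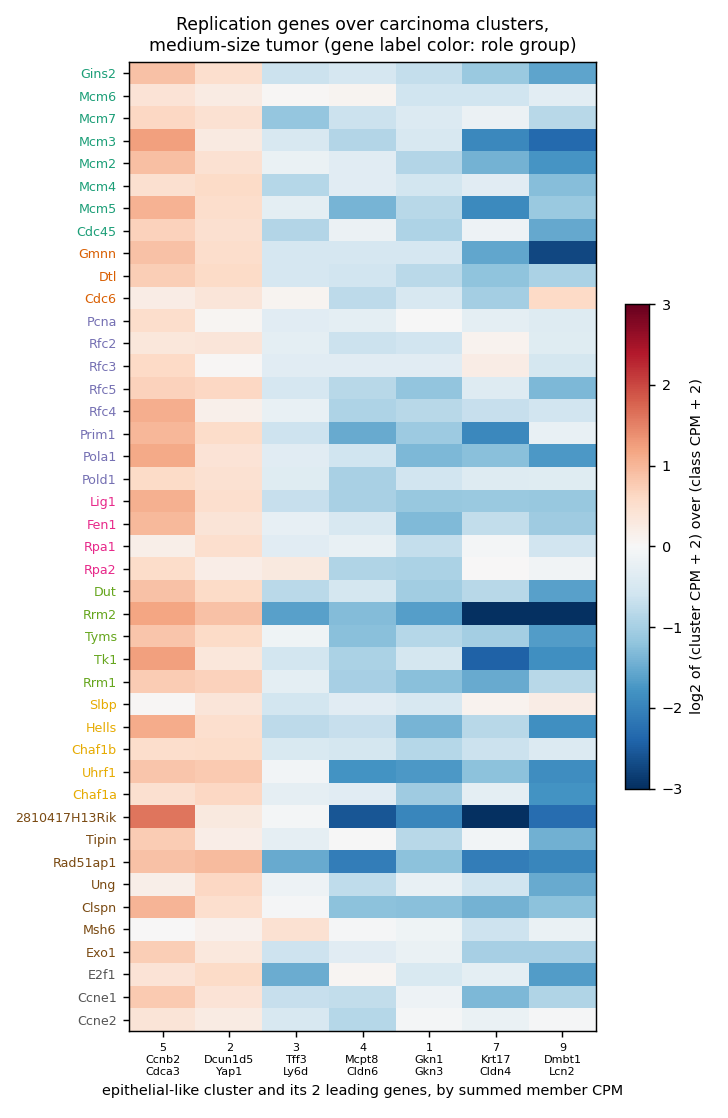
Level of each replication gene in the 7 epithelial-like clusters of the medium-size tumor, as the log2 of cluster CPM over class CPM with 2 CPM added to both (red higher, blue lower), with gene names colored by role. The 2 left columns are red for nearly all genes, the darkest blue cells are Rrm2 and 2810417H13Rik in the right columns, and Pcna, Slbp and Mcm6 stay pale.

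In the large-size tumor cluster 5 (187 cells) was the highest carcinoma cluster. Its leading genes were Ly6a, Ube2c, Birc5, Mcpt8 and Cenpa, and 5 of the leading 10 belong to the cell cycle lists, against 9 in the medium cluster. It is called mitotic-led below for these leading genes, and its mitotic sum was 5545 CPM. The replication genes stood there at 2440 CPM (2316 to 2568), and 27 members were highest in it, where 13.4% of all 7065 genes tested were. Cluster 1, which holds 3 of 5 genes of the Hmga2 and Cldn6 list, stood at 1485 CPM, the goblet-list cluster 6 at 1091, the gastric pit cluster 7 at 1030, cluster 3 at 1003 and the 18 cells of cluster 9 at 777.7 on 15 UMIs. The 209 cells of cluster 4, in which all 10 genes of the enterocyte list were found, had 45 member UMIs, or 234.0 CPM (170.7 to 313.1), and 28 of the 43 genes had no UMI there. The interval of this cluster lay below those of all the other epithelial-like clusters. Dut, which removes dUTP from the nucleotide pool, was at 667.1 CPM in cluster 5 and 15.60 in cluster 4, and Hells at 112.8 CPM in cluster 5 and with no UMI in cluster 4.

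Epithelial-like cells of the large-size tumor had 1490 CPM of these genes (1437 to 1545) and those of the medium-size tumor 1038, a ratio of 1.44 (1.38 to 1.49). The median ratio was 1.18, beside 0.921 over all 12134 genes tested. At least 2-fold higher in the large-size tumor were 9 members, where 9.44% of all genes were, and at least 2-fold lower were 2, where 19.0% of all genes were. The interval lay above 1 for 12 members (20.8% of all genes) and below 1 for 6 (29.1% of all genes). Much of the summed difference was Dut, with 731 UMIs and 373.2 CPM in the large-size tumor and 1812 UMIs and 112.3 CPM in the medium (3.33, 3.05 to 3.62), and without it the summed ratio was 1.21 (1.154 to 1.26). Without large cluster 1, with 3 of 11 epithelial markers, the summed ratio was 1.44 (1.375 to 1.502) and the median 1.19. In that setting 7 members were at least 2-fold higher and 0 at least 2-fold lower, and the shares of all genes were not counted. Without the mitotic-led cluster of each tumor the summed ratio was 1.22 (1.16 to 1.29) and the median 1.05. The members at least 2-fold higher then numbered 4 in place of 9. The share of all genes was not counted without these clusters either, so no excess of members at least 2-fold higher is shown there. Median depth in this class was 1174 against 5927 UMIs, and its part in the result was not tested.

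The other members at least 2-fold higher in the large-size tumor came from most roles. They were Ccne2 (9 against 26 UMIs, 3.05, 1.18 to 6.28), Mcm4 (40.33 against 17.61 CPM, 2.31), 2810417H13Rik (65.35 against 29.88 CPM, 2.20), Cdc45 (2.19), Tipin (59.73 against 28.45 CPM, 2.11), Pcna (105.2 against 50.71 CPM, 2.08), Rfc4 (2.07) and Hells (64.84 against 32.36 CPM, 2.02). Slbp (1.61), Gmnn (1.39) and Gins2 also had intervals above 1. Those with intervals below 1 were Mcm5 (4.595 against 12.15 CPM, 0.418, 0.170 to 0.733), Tk1, the salvage kinase for thymidine (19.40 against 43.46 CPM, 0.458), Lig1 (18.89 against 37.44 CPM, 0.517), Rrm2 (34.72 against 66.21 CPM, 0.532), Rfc5 (0.563) and Rfc2 (0.683). The direction thus differed inside the helicase, between Mcm4 and Mcm5, inside the clamp loader, between Rfc4 and Rfc5, and inside nucleotide supply, between Dut on the higher side and Tk1 and Rrm2 on the lower. Without large cluster 1, Mcm5 and Tk1 were no longer at least 2-fold lower. Rrm1, the large subunit of ribonucleotide reductase, stood at 35.23 against 30.13 CPM and Tyms at 44.93 against 50.65, both within counting error. A processed copy of Pcna, Pcna-ps2, had 16 UMIs in the medium and 2 in the large table beside 1002 and 247 for Pcna, so reads between the copies may have been split to a small extent.

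**Figure D4:**
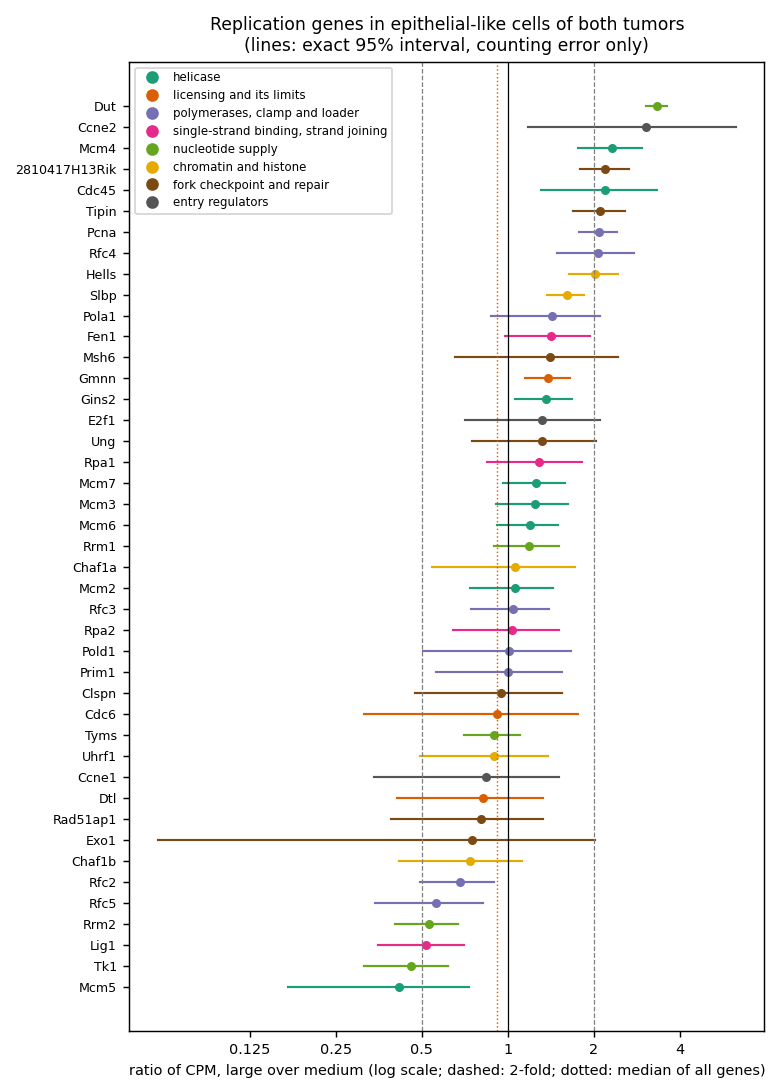
Ratio of CPM in epithelial-like cells, large-size over medium-size tumor, for each replication gene (log axis), colored by role, with lines for the exact 95% interval and dashed lines at 2-fold. Dut is at 3.33 with a narrow interval, Ccne2 at 3.05 with a wide one, and Mcm5, Tk1, Lig1 and Rrm2 are at the low end, between 0.418 and 0.532.

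The gastric pit clusters, which are led by Gkn1, Gkn2 and Gkn3 in both tumors, gave a further comparison, added after the data had been seen. They shared 5 of their 10 leading genes, and the large cluster was also led by Tff1 and Tff2. There 25 members had at least 20 UMIs, and 11 were at least 2-fold higher in the large-size tumor, where 12.1% of all 8526 genes were, and 1 at least 2-fold lower, where 16.9% of all genes were. Of these 11, Rfc4, Chaf1b and Ung (18 UMIs each in the medium cluster) and 2810417H13Rik (17) passed the minimum only with the UMIs of the large cluster. The count and the median below rest in part on them. The summed level was 1030 against 568.7 CPM, a ratio of 1.81 (1.60 to 2.05), and the median ratio was 1.90 beside 1.01 over all genes. Median depth was 1817 against 5178.5 UMIs, in 149 large and 434 medium cells. Its part in the result was not tested, and no alternative setting was run for this comparison. Dut stood at 207.3 against 53.51 CPM (3.91, 2.83 to 5.25) and 2810417H13Rik at 26.75 against 6.274 (4.53, 1.59 to 10.4), while Tk1 again had the lower ratio (2 against 80 UMIs, 0.336, 0.0270 to 0.846). Mitotic genes were at 2070 against 737.0 CPM in the same cells, with 16 of 21 at least 2-fold higher.

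In macrophage-like cells the large-size tumor stood at 1443 CPM (1279 to 1621) and the medium at 1132, a ratio of 1.27 (1.11 to 1.46). Of the 20 members with at least 20 UMIs, 3 were at least 2-fold higher, where 9.33% of all 5125 genes were, and 2 at least 2-fold lower, where 12.4% of all genes were. Mcm4 (14 against 16 UMIs, 4.13, 1.85 to 8.94) was higher, and Hells (9 against 17 UMIs, 2.60) and Fen1 (6 against 15 UMIs, 2.05) had intervals that held 1. All 3 had fewer than 20 UMIs in the medium-size tumor and passed the minimum only with those of the large-size tumor, where they were higher. Their count is therefore a description. Lig1 was lower, at 3 UMIs and 15.29 CPM against 62 UMIs and 67.61 CPM (0.297, 0.0454 to 0.692), and Tk1 had 2 against 34 UMIs (0.401, 0.0320 to 1.07). Mcm4, Dut (1.97), Pcna (1.84) and Slbp (1.89) had intervals above 1 here as in the carcinoma cells. The 2810417H13Rik level of macrophages was 203.9 CPM against 158.1 in the medium-size tumor (1.31, 0.885 to 1.84), and in the large-size tumor it again lay above the 65.35 CPM of carcinoma cells. Over all members the macrophage to carcinoma ratio within the large-size tumor was 0.968 (0.854 to 1.09), with 1.17 (1.03 to 1.34) without Dut, 0.869 (0.759 to 0.991) without 2810417H13Rik and 1.35 (1.18 to 1.54) without the mitotic-led carcinoma cluster, so its direction rested on these choices. In the medium-size tumor the ratio was 1.29 (1.21 to 1.38) without the mitotic-led cluster.

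The stromal-like cells of the large-size tumor stood at 2392 CPM (2039 to 2789) on 163 UMIs, 1.61 times (1.36 to 1.88) the carcinoma level, where the medium-size tumor had 0.647. Dut (31 UMIs), 2810417H13Rik (16), Pcna (15) and Slbp (12) had the most UMIs of the members there, and the 5 highest of 50 cells held 61 of the 163, or 37.4%. Mitotic genes were high in the same cells, at 3903 CPM against 1121 in the medium-size tumor. Epithelial markers stood at 17.1% of their carcinoma level in these cells, and their part in the result was not tested. Thinned to 500 UMIs per cell, a member UMI was found in 54.0% (39.3 to 68.2) of large and 23.9% (14.3 to 35.9) of medium stromal-like cells, in 38.9% and 30.3% of epithelial-like cells and in 39.5% and 30.4% of macrophage-like cells. Without thinning, no member UMI was found in 11 of the 50 large and 7 of the 67 medium stromal-like cells, and in 39.0% and 8.86% of epithelial-like cells and 53.0% and 18.1% of macrophage-like cells.

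To see whether the UMIs lay in few cells, each medium cell was thinned to 2500 UMIs and the number of different members it showed was counted. The median was 1 gene in epithelial-like, macrophage-like and stromal-like cells, and 24.9%, 29.96% and 26.9% of those cells showed none. The upper range, set at 10 or more of the 43 genes, held 37 of 2087 epithelial-like cells (1.77%, 1.25 to 2.44), 10 of 237 macrophage-like cells (4.22%, 2.04 to 7.62), 2 of 67 stromal-like cells and 0 of 74 mesothelial-like cells (interval up to 4.86%). It is a range and not a cell type, since 54 epithelial-like and 6 macrophage-like cells showed 8 or 9 genes and 23 and 6 showed 10 or 11. At a limit of 8 genes the shares were 4.36% and 6.75% for epithelial-like and macrophage-like cells, and at 12 genes 0.671% and 1.69%. Without thinning they were 16.2% and 9.28%, the opposite order, in cells with median depths of 5927 and 3511 UMIs. Of the 37 carcinoma cells, 23 were in cluster 5 (62.2% of them, beside 12.3% of all epithelial-like cells), 10 in cluster 2, 3 in cluster 3 and 1 in cluster 4. The tenth of cells with the most member UMIs held 41.3% of them in the epithelial-like and 48.7% in the macrophage-like class.

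Cells in the upper range had more mitotic transcripts, with a median of 10 thinned mitotic UMIs against 2 in the other epithelial-like cells and 14 against 1 in macrophages. Of the 37 carcinoma cells 12 also showed 10 or more mitotic genes, while 122 cells passed the mitotic limit alone. Among macrophages 6 of 10 passed both. The upper macrophages had epithelial markers at 191.7 CPM against 690.7 in the other macrophage-like cells, macrophage markers at 23280 against 32270 and stromal markers at 63.91 against 39.08 CPM. Before thinning their median depth was 4569.5 against 3498 UMIs, and that of the upper carcinoma cells 8615 against 5919.

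The last question was whether the genes moved together from cell to cell. For each gene, the medium epithelial-like cells were ranked by the thinned UMIs of the other 42 genes, and its CPM was compared between the top and bottom quartile of that rank. For all other genes the rank used all 43, which gave 582 cells at the top and 1108 at the bottom. The groups were larger than a quartile through ties: the bottom group held 1108 to 1117 cells for 7 members (Prim1, Pola1, Uhrf1, Clspn, Exo1, Rad51ap1 and Ccne2), like the other genes, and 522 to 594 cells for the rest, and the top group held 888 cells for Dut. The ratios of these genes are therefore not of the same contrast as the others. With the same limits for every gene, at least 3 against 0 thinned UMIs of the other members, an alternative added after the data had been seen, 41 members were again at least 2-fold higher, beside 4.58% of all genes, and the median was 4.05. The top cells had a median depth of 7337.5 and the bottom cells of 5373 UMIs, and the part of depth in the ratios was not tested. Of the 43 members 41 were at least 2-fold higher in the top cells, where 4.14% of all 11557 genes were and where 3.44% were at least 2-fold lower. The median ratio of the members was 3.95, beside 0.984 over all genes, and 42 members had intervals above 1 (19.0% of all genes).

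High ratios were those of Rad51ap1 (22.9, 12.2 to 65.8), Exo1, an exonuclease of repair (29 against 1 UMIs, 21.5, 6.90 to 1701), and 2810417H13Rik (20.2, 12.4 to 42.7). Uhrf1, which passes DNA methylation to the new strand, and the primase subunit Prim1 followed at 8.89 each, then Pola1 at 8.27, Hells at 7.82, Lig1 at 7.69, Clspn at 7.61 and Rrm2 at 7.06. With the same limits for every gene, Rad51ap1 was at 20.7 (9.16 to 134.6), 2810417H13Rik at 20.2, Pola1 at 15.7 (7.40 to 72.6), Uhrf1 at 12.6, Prim1 at 10.6, Exo1 at 9.76 (3.13 to 771.0) and Clspn at 8.19, and these intervals overlapped. The lowest 6 were the same under both rules, at Msh6 (1.43, 0.801 to 2.86), Slbp (1.77, 1.51 to 2.10), Pcna (2.16), Rfc2 (2.23), Rfc3 (2.30) and Mcm6 (2.30). Slbp, Pcna, Mcm6, Rfc2 and Rfc3 were also the 5 members with the smallest range across the clusters, and Pcna is often used alone as a proliferation marker. The level summed over all 43 members, each in its own top and bottom cells and with no minimum of UMIs, was 3.93 times higher in the top cells of the class. Within single clusters this summed ratio was 4.302 in cluster 2, 3.951 in cluster 5, 2.55 in cluster 3, 1.67 in cluster 1, 1.62 in cluster 4, 1.37 in cluster 9 and 1.202 in cluster 7. The limits differed between clusters, since the top cells held at least 7 thinned member UMIs in cluster 5 and at least 2 in cluster 7, so these ratios are a description. In macrophages, 2810417H13Rik had 119 UMIs in the top and 7 in the bottom cells, Gmnn 31 and 1, Rrm2 39 and 2, Pcna 27 and 12 and Slbp 26 and 28. The 27 members under 20 UMIs there gave no ratio, and those that passed did so mostly through the top cells, so no median over them is given.

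**Figure D5:**
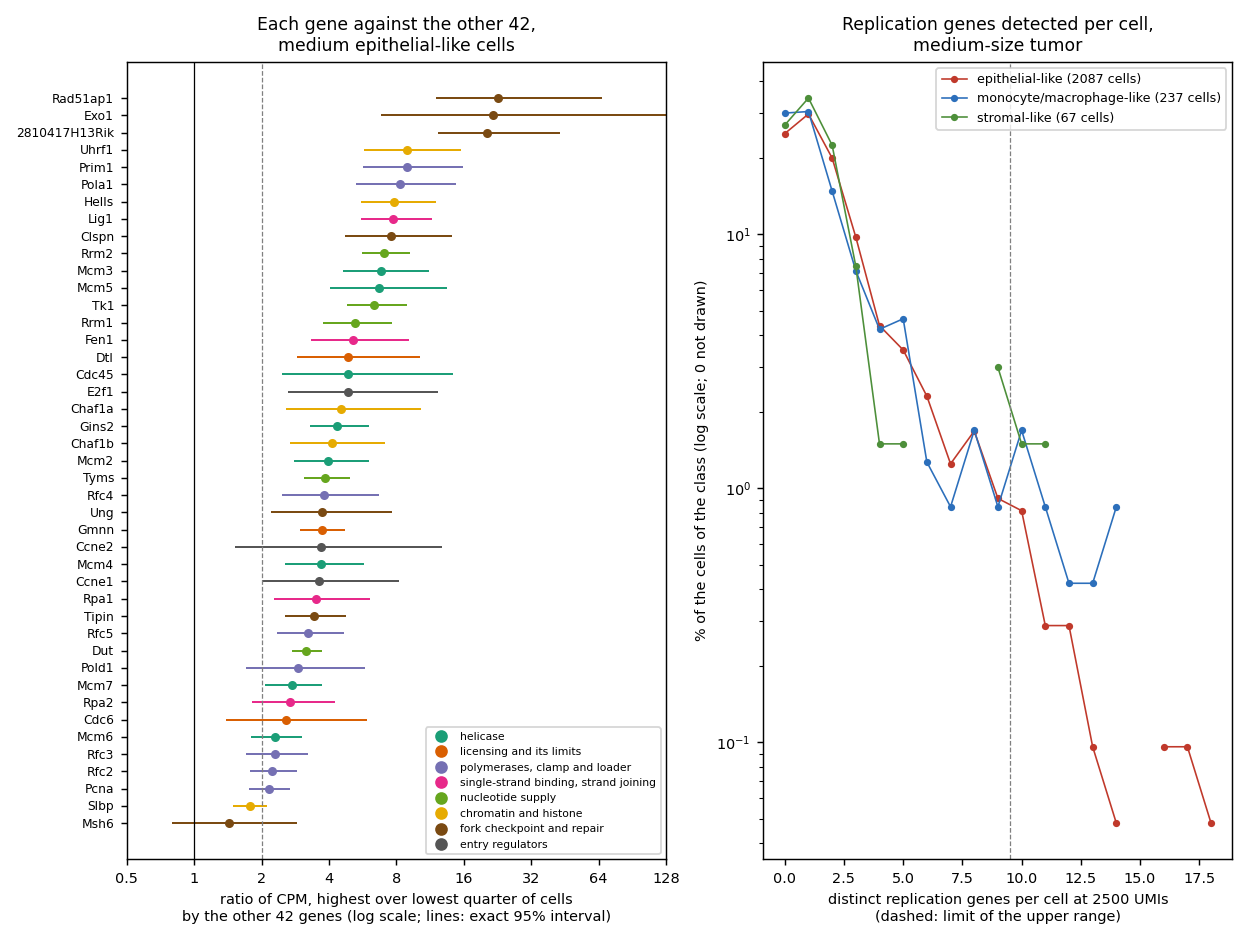
Left, ratio of CPM between the top and bottom quartile of medium epithelial-like cells ranked by the other 42 genes (log axis, lines for the exact 95% interval, that of Exo1 running past the axis). Right, percent of cells of each class (log axis) by the number of different replication genes seen at 2500 UMIs per cell, with the limit of the upper range dashed. All points but Msh6 and Slbp on the left are past 2, and on the right the macrophage-like line lies above the epithelial-like line from 10 to 14 genes.

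The genes outside the list with the highest ratios between the same cells came from the fixed mitotic list, except Pbk, which is on no list. With 10 CPM added to both sides, over 6895 genes, the ratios were 6.85 for Birc5, 6.77 for Cenpf, 6.73 for Ube2c, 6.29 for Top2a, 5.44 for Cdk1, 4.90 for Hmgb2, 4.83 for Ccna2 and 4.75 for Pbk. Of the fixed pathway lists, 44 of 46 mitotic genes (median 8.58), 25 of 39 other replication genes (2.72) and 5 of 25 G1 regulators (1.31) were at least 2-fold higher, and none of the 3 lists had a gene at least 2-fold lower. Over all genes, 4.14% were at least 2-fold higher and 3.44% at least 2-fold lower. The 5 G1 regulators were the E2F repressors E2f8 (11.2) and E2f7 (5.88), the pocket protein Rbl1 (2.94) and the inhibitors Cdkn2d (2.34) and Cdkn2c (2.31). Cdkn1a, the p21 inhibitor that acts downstream of p53, was at 0.621 (0.566 to 0.680), Cdkn1c at 0.630 (0.431 to 0.888) and Cdkn2b at 0.781 (0.686 to 0.886), short of 2-fold but with intervals below 1. Cdkn2a had its interval above 1, at 1.26 (1.19 to 1.34). Ccnd1 stood at 1.402, Cdk4 at 1.64 and Myc at 1.103.

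The same lists gave the setting of the class comparisons. Between macrophages and carcinoma cells, 8 of 46 mitotic genes were at least 2-fold higher and none lower (median 1.23), with Mki67 at 2.72 and Ckap2l at 2.48. Over all genes, 12.9% were at least 2-fold higher in macrophages and 24.9% at least 2-fold lower. Ccnf rested on 4 macrophage UMIs (3.52, 0.739 to 8.53), and its interval holds 1. Of 40 other replication genes 1 was higher and 3 were lower (0.935), the lowest being Orc6 of the origin recognition complex at 0.401 and, on 1 macrophage UMI each, Timeless at 0.298 (0.00378 to 0.854) and Cdca7 at 0.195 (0.00247 to 0.555). Of 25 G1 regulators 5 were higher and 7 lower (0.748): E2f2 stood at 4.66 (8 macrophage UMIs, 1.702 to 9.42) and Cdkn1a at 4.24, while Ccnd1 stood at 0.194, Cdkn2b at 0.187 and Cdkn2a at 0.120. Between stromal and carcinoma cells 4 of 46 mitotic genes were higher and 7 lower (0.943), 3 and 4 of 40 other replication genes (0.921), and 5 and 4 of 25 G1 regulators (1.08). The shares of all genes there were 22.7% higher and 11.8% lower. Between the carcinoma cells of the large-size and medium-size tumor, 7 of 47 mitotic genes were higher and 3 lower (1.28), 6 and 4 of 40 other replication genes (1.13) and 2 and 2 of 25 G1 regulators (1.03). For this pair 9.44% of all genes were higher and 19.0% lower.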

How the data were processed

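Cells of 1 medium-size and 1 large-size KPC tumor were measured by 10x Chromium Single Cell 3′ (v2 chemistry). The authors deposited 1 table of UMI counts per gene and cell for each tumor, made with Cell Ranger on mm10 per the submitters' processing notes (version not given in the sources used here), with the 4 technical replicates of a tumor pooled. No cell was removed. Scrublet (scanpy 1.11.5) called 0 medium and 9 large doublets, and all were kept.

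Cells were clustered per tumor in Seurat 5.3.0 (R 4.3.3; log normalization to 10000, 2000 variable genes, 10 principal components, resolution 0.8), with the members and the mitotic and other replication lists (132 genes) left out. A cluster was named where at least 3 markers of a class were in 10% of its cells and at 25% of the top cluster's level, and left unnamed where another class reached 60% of its markers. Counts were summed per class as CPM. Ratios had 1 UMI added, while their exact 95% intervals used the counts alone. Genes needed 20 UMIs in both groups together and were called at 2-fold. With 1 tumor per size there was no test and no p-value. Cells were thinned to 2500 (medium) or 500 UMIs (both). Analysis used numpy 2.4.6, scipy 1.17.1 and pandas 2.3.3, was tested on simulated data, and TMM factors came from edgeR 4.0.16. The text names, per comparison, the members with the highest and lowest ratios overall and by role, and the main helicase, clamp, nucleotide and entry genes. Members, lists and naming limits were chosen with earlier results of these data known. Alternatives covered clustering, class calls, thinning seeds, limits, pseudocount and scaling.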

Additional observations from a re-analysis of the deposited data

Results flagged for a closer look

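The summed level of the 43 genes in stromal-like cells relative to carcinoma cells of the same tumor was 0.647 (0.565 to 0.739) in the medium-size and 1.61 (1.36 to 1.88) in the large-size tumor, so the summed levels stood in opposite order in the 2 tumors. Without the mitotic-led carcinoma cluster the summed ratios were 0.768 (0.670 to 0.877) and 2.24 (1.89 to 2.63), in the same opposite order. The median ratio over the 43 genes was less stable in the medium-size tumor. It went from 0.803 to 0.984 without that cluster, and to 1.01, the other direction, with equal weight for every cell. With 1 tumor of each size the difference was not tested. The stromal-like classes held 67 and 50 cells, and their 5 highest cells held 39.0% and 37.4% of the member UMIs.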

How the results depend on the processing

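No paired analysis was possible because the technical replicates of each tumor were pooled in 1 table whose barcodes do not name them. The macrophage to carcinoma median of 1.11 became 1.198 at resolution 0.4, 1.19 with 20 principal components, 1.21 with equal weight for every cell, 1.28 without the mitotic-led carcinoma cluster and 1.2 with the Inhba and Bmp2 cluster counted as carcinoma, and the members at least 2-fold lower went from 3 to 0 at resolution 0.4. The stromal to carcinoma median of 0.803 became 1.01, the other direction, with equal weight for every cell, and 0.984 without the mitotic-led cluster. At resolution 0.4 that comparison was not run, since no cell lay in a stromal-like cluster. The large to medium carcinoma median of 1.18 became 1.11 with all genes in the clustering, 1.11 with 20 principal components or equal cell weight, 1.30 with TMM scaling, which moved the median of all genes by 0.138 (log2), 1.12 without Dut, 1.05 without the mitotic-led clusters and 1.27 without the enterocyte-list and goblet-list clusters. In macrophages TMM scaling moved all genes by 0.0689 (log2), and 5 in place of 3 members were then at least 2-fold higher. The share of all genes under this scaling was not counted, so this rise is not a result about the members. The upper range share of 1.77% in epithelial-like cells became 4.36% at 8 genes, 0.671% at 12 genes and 16.2% without thinning, that of 4.22% in macrophages 1.69% at 12 genes and 9.28% without thinning, and that of 2.99% in stromal-like cells 0.0% at 12 genes. The ratio of 4.22 between the highest and lowest carcinoma cluster became 5.70 with all genes in the clustering, 2.63 at resolution 0.4, 5.07 at resolution 1.2, 5.80 with 20 principal components and 3.27 without the mitotic-led cluster. The co-variation median of 3.95 became 5.62 for the highest 10% of cells against those at or below the median, and the planned medians within single clusters came out between 1.13 and 4.93. Those rest on different sets of 5 to 40 members, which entered by their UMIs in the cells compared, so they are not comparable with 3.95 or with each other. In the other alternatives, 49 summary values moved by less than their counting intervals and 40 counts of members by no more than 1.5-fold. Among all alternatives, the same co-variation limits for every gene and the summed co-variation, the comparisons of classes or tumors without Dut or 2810417H13Rik, all that leave out a cluster and the count of the Inhba and Bmp2 cluster as carcinoma were chosen after seeing the data. The causes of these shifts were not tested, apart from fewer cells or genes. Stromal-like values rest on 223 and 163 UMIs, which limits what can be seen of single genes in that class.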
